A study of Homo sapiens with 6 samples.

Results

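The IRF and STAT transcription factors described here are 8 genes, IRF1, IRF2, IRF3, IRF5, IRF7, IRF9, STAT2 and STAT3, chosen by symbol from the 60670 genes of the deposited table, in which none of the 8 symbols was repeated. Their transcripts were measured by RNA sequencing in Ishikawa cells, an established line derived from a human endometrial adenocarcinoma. Some label fields call the samples endometrium tissue, but the cell line field and the growth conditions name Ishikawa cells. The cells were grown in dishes and given DMSO, the solvent, or 5 µM penfluridol, with 3 libraries in each group. Penfluridol is an oral antipsychotic drug whose action lasts for days. All libraries come from 1 cell line, and the sources used here do not give the duration of treatment. Nor do the labels say whether the 3 libraries of a group came from separate cultures, so each p-value reflects library-to-library spread that may be technical.

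Interferon regulatory factors (IRFs) bind DNA through a shared amino-terminal domain and recognise the interferon-stimulated response element (ISRE), and signal transducers and activators of transcription (STATs) are latent cytoplasmic proteins that Janus kinases phosphorylate after a cytokine binds its receptor. Type I interferon leads to assembly of ISGF3, a complex that contains STAT2 and IRF9 and binds the ISRE, whereas interferon gamma and the IL-6 family act through STAT dimers, of STAT3 for the IL-6 family, at gamma-activated sites (GAS). IRF3 and IRF7 are the factors that switch on interferon genes themselves once sensors of foreign nucleic acid have activated their kinases. Much of this regulation acts on phosphorylation and nuclear entry, which transcript levels do not measure.

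In the Pfam annotation deposited with the table, the DNA-binding IRF domain is listed for 9 genes, of which 6 are described here, and the STAT DNA-binding domain for 7 genes, of which 2 are described here. The second domain typical of IRFs that bind partner proteins, listed as IRF-3, was present in IRF3, IRF5, IRF7 and IRF9 and not listed for IRF1 or IRF2. STAT2 alone of the pair had a STAT2 carboxy-terminal domain listed. In GENCODE release 29 on GRCh38 all 8 genes are protein-coding. IRF1 (ENSG00000125347) lies on chromosome 5 from 132481609 to 132490798, IRF7 (ENSG00000185507) on chromosome 11 from 612553 to 615999, IRF9 (ENSG00000213928) on chromosome 14 from 24161053 to 24166565 and STAT2 (ENSG00000170581) on chromosome 12 from 56341597 to 56360155. IRF3 (ENSG00000126456) lies on chromosome 19 from 49659569 to 49665875, IRF5 (ENSG00000128604) on chromosome 7 from 128937612 to 128950035, STAT3 (ENSG00000168610) on chromosome 17 from 42313324 to 42388568 and IRF2 (ENSG00000168310) on chromosome 4 from 184387713 to 184474580.

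RefSeq promoter windows on GRCh38.p14, which run from 250 bases before to 50 bases after an annotated start, were matched for 5 of the 8 genes, IRF1, IRF5, IRF9, STAT2 and STAT3, in 8 windows. Both IRF1 and IRF9 held a GAS match, searched as TTCNNNGAA, which reads the same on both strands, and they are shown because these are the called members with a matched window. Capitals mark the GAS match and, in the interferon-stimulated genes printed further on, also the ISRE match. The IRF1 window is chr5:132490724-132491023 on the minus strand and the IRF9 window chr14:24161015-24161314 on the plus strand.
IRF1: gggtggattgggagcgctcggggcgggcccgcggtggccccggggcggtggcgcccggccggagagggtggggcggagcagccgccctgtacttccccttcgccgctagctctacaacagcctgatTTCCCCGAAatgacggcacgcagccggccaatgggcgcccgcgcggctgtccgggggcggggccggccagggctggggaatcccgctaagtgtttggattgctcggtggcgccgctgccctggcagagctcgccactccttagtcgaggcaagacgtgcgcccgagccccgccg
IRF9: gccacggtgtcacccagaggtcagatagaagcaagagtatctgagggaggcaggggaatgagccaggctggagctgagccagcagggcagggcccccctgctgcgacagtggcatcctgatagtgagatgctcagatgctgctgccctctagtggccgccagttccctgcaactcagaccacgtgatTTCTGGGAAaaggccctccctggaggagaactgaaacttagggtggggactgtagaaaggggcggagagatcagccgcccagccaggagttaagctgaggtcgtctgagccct

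The GAS match of IRF1 starts 124 bases upstream of the annotated start and that of IRF9 63 bases upstream. GAS matches occurred in 7.66% of the 35116 windows of this length in the table. The ISRE was searched as TTTCNNTTTC on both strands and was found in 3.57% of all windows and in none of the 5 members' windows. An NF-kappaB consensus match was present in the IRF1 window, starting 50 bases upstream, and in 11.3% of all windows. No GAS, ISRE or NF-kappaB match was found in the windows of STAT2, STAT3 or IRF5, the last with 4 windows. A match describes letters in the window and was not tested as a binding site.

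Before the members are compared, differences among the DMSO libraries are described. DMSO 3 correlated with the penfluridol libraries at 0.945 to 0.955 (Pearson's r of log2(TPM + 1) across genes, which are not independent replicates). With DMSO 2 it correlated at 0.930 and with DMSO 1 at 0.956. DMSO 2 lay farthest from the penfluridol libraries, at 0.895 to 0.917. The deviation of each gene from its mean over the 6 libraries also followed transcript GC content. Spearman's rho across genes was -0.555, -0.725 and 0.280 in DMSO 1 to 3 and 0.618, 0.568 and 0.271 in the penfluridol libraries. The groups thus differ in this trend, and DMSO 3 has the sign of the penfluridol libraries. Without DMSO 3, the DMSO libraries left all have the opposite sign, so that fit does not lessen the GC difference between the groups. The median log2 fold change rose along the GC classes, from -0.80 in 754 genes under 40% GC to 0.37 in 540 genes of 65% GC or more. Values are therefore also given, for part of the genes, without DMSO 3 or from a GC-adjusted fit. In the GC-adjusted fit the per-library trend with transcript GC and length was taken out first. Where no such value is given, it may still differ. Epithelial markers summed to 3846 to 4869 TPM with DMSO and 2500 to 2936 TPM with penfluridol, with all 5 above 1 TPM. The markers did not change alike, with log2 fold changes from -0.95 to 0.11, of which 1 was above 0. In 3 of the 5 every penfluridol value lay below every DMSO value, as in 13.6% of all tested genes. Of the 5 endometrial lineage markers, PAX8, SOX17 and EMX2 were expressed, while ESR1 and PGR were under 1 TPM in every library. Endothelial markers were under 1 TPM in every library, and so were 5 of 6 fibroblast and 5 of 7 leukocyte markers, with CD3E and MS4A1 listed at 0 throughout. The summed leukocyte list was 1.91 to 3.57 TPM with DMSO and 5.72 to 6.65 TPM with penfluridol, and CD68, a glycoprotein of endosomes and lysosomes, was at 0.723 ± 0.332 and 4.62 ± 0.210 TPM (mean ± SD of 3 libraries each, as for all such values; limma adjusted p = 0.00653). The part of the GC trend, of DMSO 3 and of these marker levels in the results that follow was not tested beyond the values given beside them. In bulk RNA, fewer cells of a type and less RNA per cell cannot be told apart.

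Expression is given as TPM, a transcript abundance that is divided by transcript length. Levels of different genes can be compared on it only roughly, since it does not take out the GC trend described above. Fold changes are differences of log2(TPM + 1), penfluridol minus DMSO, and understate the change of low genes. They were tested with limma in the 12201 genes that averaged 1 TPM or more, and a gene was called at a Benjamini-Hochberg adjusted p under 0.05. Of the 8 members 7 reached that mean, and IRF2 did not. IRF7, IRF1 and IRF9 rose, none fell, and IRF3, IRF5, STAT2 and STAT3 did not pass, while 6 were higher and 0 lower at an unadjusted p under 0.05, as were 18.9% and 14.2% of all tested genes. Across all tested genes 13.2% were called, 9.75% higher and 3.48% lower. All 7 tested members had a fold change above 0, as did 47.2% of all tested genes. Their median log2 fold change was 0.70 beside -0.04 for all tested genes, and 0.65 beside -0.01 in the GC-adjusted fit. The members were chosen with earlier results of these data known, so this contrast is a description and not a test. The 3 penfluridol values lay above the 3 DMSO values in 5 of the 7, IRF1, IRF5, IRF7, IRF9 and STAT2, and in 23.3% of all tested genes. In the GC-adjusted fit 4 members rose, with STAT2 added, beside 10.2% of all genes higher and 8.97% lower. Without DMSO 3, 5 rose, with IRF3 and IRF5 added, beside 14.1% of all genes higher and 19.4% lower.

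**Figure D1:**
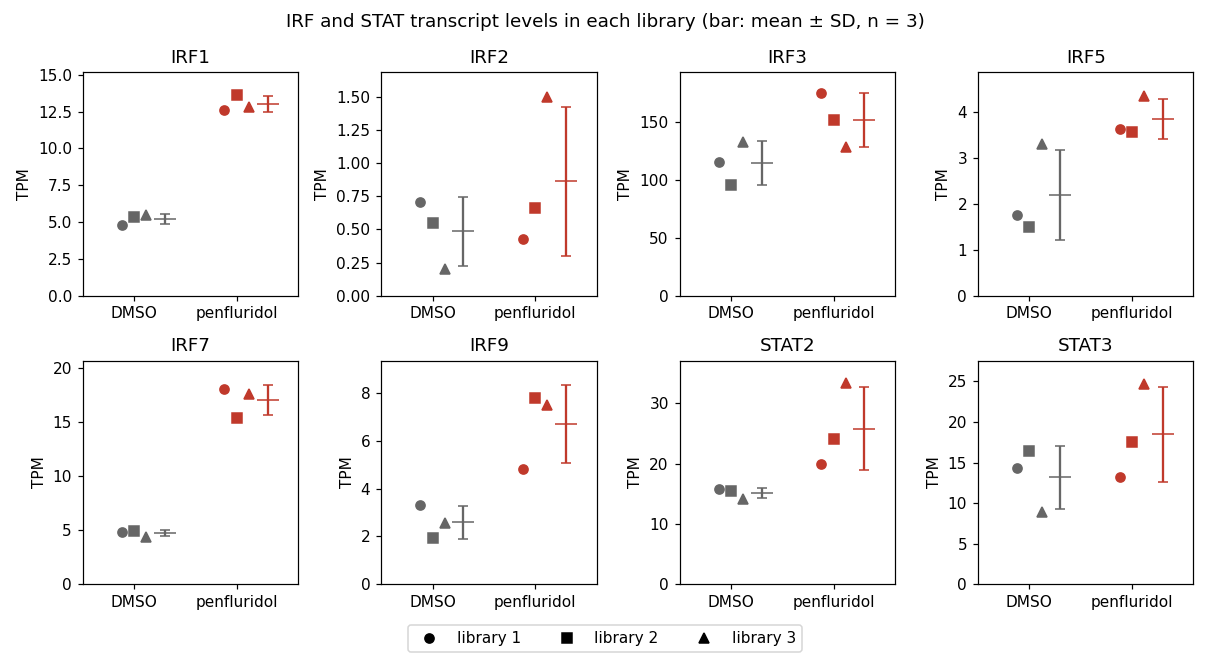
TPM of each of the 8 genes in the 3 DMSO (grey) and 3 penfluridol (red) libraries, each panel with its own linear axis from 0; symbols stand for libraries 1 to 3 and bars for mean ± SD. The groups are separate in IRF1, IRF5, IRF7, IRF9 and STAT2 and overlap in IRF2, IRF3 and STAT3.

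IRF7, the factor that amplifies interferon alpha production in virus-infected cells, had the largest change and the smallest p of the family genes described here. It measured 4.83, 4.92 and 4.38 TPM in DMSO 1 to 3 and 18.0, 15.4 and 17.6 TPM in penfluridol 1 to 3. The 3 DMSO values lie close together and the lowest penfluridol value is far above them. The means were 4.71 ± 0.289 and 17.0 ± 1.41 TPM, a 3.61-fold ratio of means and a log2 fold change of 1.65 (SE 0.16, 95% interval 1.28 to 2.02, limma adjusted p = 0.00207). Of the 12201 tested genes 77 had a smaller p, and 99.3% had a smaller log2 fold change. IRF7 transcripts have a GC content of 66.9%, the highest of the 8 genes, beside a median of 51.8% for all genes tested, and its log2 fold change in the GC-adjusted fit was 1.26 (adjusted p = 0.00217). The call was made in each of the 6 fits that left out 1 library, with adjusted p-values of 0.00305 to 0.0239.

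IRF3, the closest relative of IRF7 in function and the factor that starts the interferon beta response, was the most abundant member. It measured 116, 95.6 and 133 TPM with DMSO and 175, 152 and 129 TPM with penfluridol. Penfluridol 3 lay below DMSO 3, so the groups overlap. The log2 fold change was 0.40 (SE 0.17, 95% interval 0.01 to 0.80) and did not pass (limma adjusted p = 0.147). It passed without DMSO 3 (log2 fold change 0.51, adjusted p = 0.0491), while the GC-adjusted log2 fold change was 0.10, with an interval from -0.22 to 0.43 (adjusted p = 0.641). Its transcripts have 60.9% GC. In addition, 19.4% of its exonic bases overlap exons of BCL2L12 on the opposite strand, a gene with mean levels of 135 TPM in DMSO and 127 TPM with penfluridol. Since the sources used here do not say whether strand was used, reads of the pair may not be separated.

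In every penfluridol library IRF7 stood higher relative to IRF3 than in any DMSO library. The ratio of IRF7 to IRF3 TPM was 0.0416, 0.0515 and 0.0329 with DMSO and 0.103, 0.101 and 0.137 with penfluridol. These groups do not overlap. A two-sided exact permutation test over the 6 libraries gave p = 0.1, the smallest that 3 against 3 allows, and an adjusted p of 0.1 over the 4 ratios tested. That test could therefore not reach 0.05. The difference in log2 ratio was 1.45. On GC-adjusted log2(TPM + 1) values, which differ also by the added 1, it was 1.16.

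IRF1, a factor induced by interferon gamma and by NF-kappaB signalling that acts on antigen presentation and growth arrest genes, rose. It measured 4.83, 5.37 and 5.46 TPM with DMSO and 12.6, 13.6 and 12.8 TPM with penfluridol. Both groups are tight and lie apart. The means were 5.22 ± 0.341 and 13.02 ± 0.542 TPM, a ratio of means of 2.49 and a log2 fold change of 1.17 (SE 0.15, 95% interval 0.81 to 1.54, limma adjusted p = 0.00593). The call was lost without penfluridol 2 (adjusted p = 0.0582) and was kept in the GC-adjusted fit, at a log2 fold change of 0.96 (adjusted p = 0.00352). Exons of the antisense transcript annotated as C5orf56 in GENCODE overlap 22.0% of the exonic bases of IRF1, and that gene was at 1.20 TPM with DMSO and 1.56 TPM with penfluridol on average.

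IRF2, which competes with IRF1 for the same sites and mostly represses them, was the least abundant member and was not tested. It measured 0.71, 0.55 and 0.20 TPM with DMSO and 0.43, 0.66 and 1.50 TPM with penfluridol. The groups overlap, and penfluridol 3 is the highest. With no filter on low TPM its log2 fold change was 0.30 (adjusted p = 0.554).

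IRF5, known in myeloid cells for driving inflammatory cytokine genes, was low. It measured 1.76, 1.50 and 3.31 TPM with DMSO and 3.64, 3.57 and 4.36 TPM with penfluridol. The groups do not overlap, but DMSO 3 lies next to the penfluridol values. The log2 fold change of 0.64 (SE 0.26, 95% interval 0.02 to 1.27) did not pass (limma adjusted p = 0.142). Without DMSO 3 it was 0.88 and passed (adjusted p = 0.0257), and the GC-adjusted value was 0.34 (adjusted p = 0.259).

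IRF9, the DNA-binding subunit of ISGF3, rose. It measured 3.31, 1.94 and 2.55 TPM with DMSO and 4.83, 7.80 and 7.47 TPM with penfluridol. The groups do not overlap, and penfluridol 1 lies nearest to DMSO. The means were 2.60 ± 0.686 and 6.70 ± 1.63 TPM, a ratio of means of 2.58 and a log2 fold change of 1.09 (SE 0.25, 95% interval 0.49 to 1.69, limma adjusted p = 0.0340). The call was kept without DMSO 3 (adjusted p = 0.0276) and in the GC-adjusted fit (log2 fold change 0.86, adjusted p = 0.0286), but was lost without DMSO 1 (0.0838), DMSO 2 (0.0914), penfluridol 1 (0.0543), penfluridol 2 (0.157) or penfluridol 3 (0.0936). In addition, 48.4% of its exonic bases are shared with AL136295.5 on the same strand, whose mean was 1.97 TPM with DMSO and 3.22 TPM with penfluridol, so the division of reads between the pair is uncertain.

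STAT2, the subunit of ISGF3 that carries its transactivation domain, measured 15.8, 15.4 and 14.1 TPM with DMSO and 20.0, 24.0 and 33.4 TPM with penfluridol. The groups do not overlap, and the penfluridol values are spread widely. The means were 15.1 ± 0.852 and 25.8 ± 6.86 TPM and the log2 fold change was 0.70 (SE 0.20, 95% interval 0.23 to 1.18), which did not pass (limma adjusted p = 0.0613). It passed in the GC-adjusted fit (log2 fold change 0.65, adjusted p = 0.0117), with median-of-ratios scaling (0.79, adjusted p = 0.0257) and when the test was restricted to genes that reached 5 TPM in 3 or more libraries (adjusted p = 0.0440). It passed in none of the 6 fits that left out 1 library (adjusted p = 0.0578 to 0.182).

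STAT3, the mediator of IL-6 family signals, measured 14.3, 16.4 and 8.90 TPM with DMSO and 13.2, 17.5 and 24.7 TPM with penfluridol. The groups overlap, with DMSO 3 lowest and penfluridol 3 highest. The log2 fold change of 0.45 (SE 0.29, limma adjusted p = 0.305) has a 95% interval from -0.23 to 1.14. Without DMSO 3 the estimate was 0.21 (adjusted p = 0.545). The GC-adjusted value was 0.45 (95% interval 0.014 to 0.885, adjusted p = 0.131). With median-of-ratios scaling it was 0.54 (95% interval 0.085 to 0.998, adjusted p = 0.0959), so STAT3 passed in none of these fits.

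**Figure D2:**
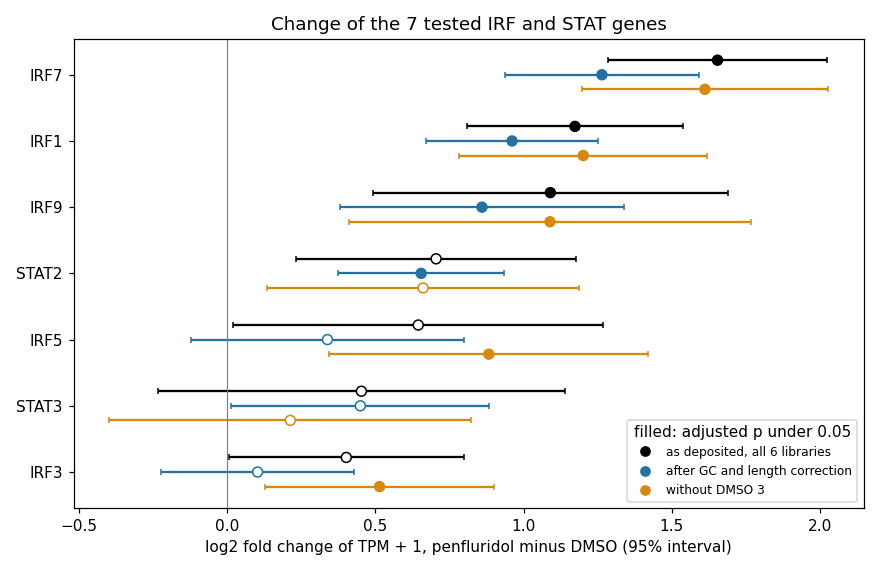
Log2 fold changes of the 7 tested genes with 95% intervals, as deposited (black), GC-adjusted (blue) and without DMSO 3 (orange); filled points have an adjusted p under 0.05. IRF7, IRF1 and IRF9 are filled in all 3 fits, STAT2 in the GC-adjusted fit alone and IRF5 and IRF3 without DMSO 3 alone.

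In order of level with DMSO, IRF3 at 115 TPM was followed by STAT2 at 15.1, STAT3 at 13.2, IRF1 at 5.22, IRF7 at 4.71, IRF9 at 2.60, IRF5 at 2.19 and IRF2 at 0.487 TPM. The ranges of STAT2 and STAT3, of IRF1 and IRF7, and of IRF9 and IRF5 overlapped, so the order within these pairs is not resolved. With penfluridol IRF7 at 17.0 TPM stood above IRF1 at 13.02 TPM without overlap, and its range overlapped that of STAT3 at 18.5 TPM. IRF9 and IRF5, whose ranges overlapped with DMSO, were at 6.70 and 3.86 TPM and no longer overlapped. These levels are without GC adjustment, and exons of IRF1, IRF3 and IRF9 overlap those of other genes, so the order is approximate.

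**Figure D3:**
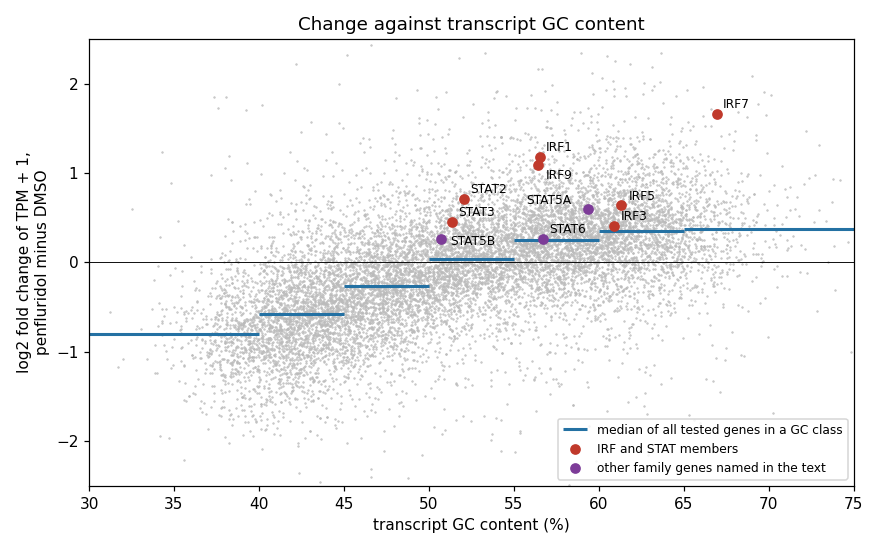
Log2 fold change against transcript GC content for all tested genes (grey points; genes beyond the axes are not drawn), with the median per GC class (blue), the 7 tested members (red) and STAT5A, STAT5B and STAT6 (purple). The members lie above the median of their GC class.

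Of the other 8 IRF and STAT genes, IRF4, IRF8 and STAT4, which are known mainly from lymphoid and myeloid cells, were listed at 0 in all libraries. Of the 5 that were tested limma called none in either direction. At an unadjusted p under 0.05, 1 was higher and 0 lower, beside 18.9% and 14.2% of all tested genes. STAT5A, a target of prolactin and growth hormone receptors, measured 6.07, 4.98 and 5.59 TPM with DMSO and 9.03, 9.08 and 8.62 TPM with penfluridol. The groups do not overlap. Its log2 fold change of 0.60 (SE 0.16) missed the threshold (limma adjusted p = 0.0552) and passed without DMSO 3 (adjusted p = 0.0468), and the GC-adjusted value was 0.34 (adjusted p = 0.0827). STAT5B, its close paralog, and STAT6, the mediator of IL-4 signals, had log2 fold changes of 0.26 each (adjusted p = 0.394 and 0.373), and 0.29 and 0.04 in the GC-adjusted fit. These 3 genes were singled out after their values were seen.

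Relative to STAT2, the other ISGF3 subunit described here, IRF9 also stood higher in every penfluridol library than in any DMSO library. The ratio of IRF9 to STAT2 TPM was 0.210, 0.126 and 0.180 with DMSO and 0.242, 0.325 and 0.224 with penfluridol. The groups are separate, with DMSO 1 and penfluridol 3 closest to each other. The exact permutation p was 0.1, the smallest possible, and 0.1 adjusted over the 4 ratios tested. The difference in log2 ratio was 0.63, and on GC-adjusted log2(TPM + 1) values it was 0.21. These differ also by the added 1 and are not directly comparable. Without GC adjustment the log2 fold changes of TPM + 1 were 1.09 for IRF9 and 0.70 for STAT2.

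**Figure D4:**
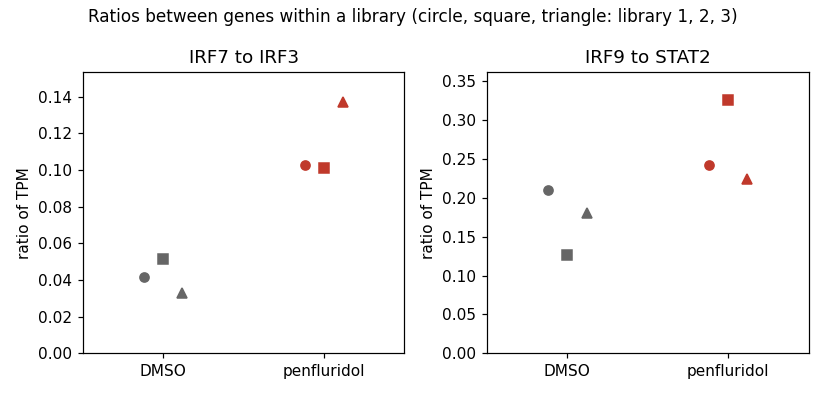
Ratios of TPM of IRF7 to IRF3 and of IRF9 to STAT2 within each library, on linear axes from 0, for 3 DMSO (grey) and 3 penfluridol (red) libraries. In both ratios every penfluridol library lies above every DMSO library.

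Upstream of the ISGF3 and GAS factors, the interferon genes themselves were at or near 0. None of 10 interferon ligand genes reached the mean of 1 TPM, 6 were listed at 0 in all libraries, and the highest single value was 0.27 TPM, of IFNL1, an interferon lambda, in penfluridol 3. Of 10 receptor and Janus kinase genes 8 were tested and limma called none, with a median log2 fold change of 0.12. At an unadjusted p under 0.05, 3 were higher and 1 lower, beside 18.9% and 14.2% of all tested genes. The GC-adjusted fit called 1 higher, beside 10.2% of all genes. TYK2, a Janus kinase that binds the IFNAR1 chain of the type I receptor, was by far the most abundant, at a mean of 48.5 ± 7.54 TPM in DMSO libraries and 63.3 ± 6.30 TPM in penfluridol libraries (limma adjusted p = 0.132). Its log2 fold change of 0.38 was 0.48 without DMSO 3, where it passed (adjusted p = 0.0478), and 0.08 in the GC-adjusted fit (adjusted p = 0.641). In contrast, JAK1 did not exceed 0.43 TPM and JAK2 0.19 TPM in any library. The type I receptor chains IFNAR1 and IFNAR2, with JAK1 and JAK2 named after their values were seen, had log2 fold changes of -0.93 and -0.61 (adjusted p = 0.165 and 0.151). Both passed without DMSO 3 (adjusted p = 0.0105 and 0.0471), and the GC-adjusted values were -0.50 and -0.23 (adjusted p = 0.193 and 0.286).

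Of 21 sensors, adaptors and kinases that act upstream of IRF3 and IRF7, 13 were tested, 2 rose and none fell, with a median log2 fold change of -0.11, which was 0.13 in the GC-adjusted fit. The 2 were TICAM1, the adaptor of Toll-like receptor 3, from 6.85 ± 0.335 to 13.9 ± 1.67 TPM (log2 fold change 0.92, limma adjusted p = 0.0147), and IRAK1, a kinase of the MyD88 route to IRF7, from 160 ± 30.6 to 291 ± 34.2 TPM (0.87 on the log2 scale, adjusted p = 0.0191). The GC-adjusted fit kept both calls, with log2 fold changes of 0.54 and 0.55 (adjusted p = 0.0210 and 0.0236). Both were lost without DMSO 1 (adjusted p = 0.0754 and 0.0821), penfluridol 1 (0.0571 and 0.0752) or penfluridol 2 (0.0818 and 0.102). TBK1, the kinase that phosphorylates IRF3 and a gene singled out after its values were seen, was at 1.66 ± 1.23 TPM with DMSO and 0.647 ± 0.520 TPM with penfluridol (adjusted p = 0.3001). Of the 13 tested genes 3 rose and 3 fell without DMSO 3, beside 14.1% and 19.4% of all genes. In the GC-adjusted fit 2 rose and 1 fell, beside 10.2% and 8.97% of all genes.

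Of 9 IRF-binding or IRF-modifying cofactors, all tested, 2 rose and none fell, beside 9.75% of all tested genes called higher and 3.48% lower. Their median log2 fold change was 0.06, or 0.23 in the GC-adjusted fit, which called 1 higher, beside 10.2% of all genes. IRF2BP1, a corepressor that binds IRF2, rose from 23.1 ± 2.76 to 39.4 ± 0.662 TPM (log2 fold change 0.75, limma adjusted p = 0.0150), and its relative IRF2BPL from 6.16 ± 1.39 to 13.4 ± 4.22 TPM (0.99 on the log2 scale, adjusted p = 0.0491). Both calls were lost in the GC-adjusted fit (log2 fold changes 0.30 and 0.57, adjusted p = 0.0586 and 0.132). Leaving out DMSO 1 (adjusted p = 0.0705 and 0.132), penfluridol 1 (0.0629 and 0.0880) or penfluridol 2 (0.0959 and 0.138) also ended both, and leaving out DMSO 2 (0.0759) or penfluridol 3 (0.101) that of IRF2BPL.

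On the gp130 side, the route to STAT3, 6 of 12 cytokine and receptor genes were tested, 1 rose and none fell. The shares of all tested genes were 9.75% higher and 3.48% lower. Their median log2 fold changes were 0.38 for the list and -0.04 for all tested genes. LIF, a cytokine of embryo implantation, rose from 0.973 ± 0.180 to 2.71 ± 0.455 TPM (log2 fold change 0.91, limma adjusted p = 0.0384). The GC-adjusted value was 0.59 (adjusted p = 0.0436). The call was lost without DMSO 1 (0.123), DMSO 2 (0.0813), penfluridol 1 (0.0926), penfluridol 2 (0.147) or penfluridol 3 (0.103). CTF1, cardiotrophin 1, had the highest mean of the list, at 1.54 ± 0.385 and 3.38 ± 0.633 TPM (adjusted p = 0.0674). Its log2 fold change of 0.79 was 0.89 without DMSO 3 (adjusted p = 0.0329) and 0.44 in the GC-adjusted fit (adjusted p = 0.140). Of 17 STAT feedback inhibitors and phosphatases 12 were tested and limma called none, with a median log2 fold change of -0.05, or 0.05 in the GC-adjusted fit. At an unadjusted p under 0.05, 4 were higher and 0 lower, beside 18.9% and 14.2% of all tested genes. Other fits did call genes of this list. Median-of-ratios scaling called 1 higher (9.02% of all genes) and the fit without DMSO 3 called 1 lower (19.4%). With no filter on low TPM, 1 of the 17 was called higher (3.02% of all genes). PTPN6, the phosphatase SHP-1 and the most abundant of them, was at 38.0 ± 2.44 and 37.9 ± 2.86 TPM (adjusted p = 0.989, or 0.0571 at a log2 fold change of -0.33 in the GC-adjusted fit).

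Downstream, the genes that ISGF3 is known to induce did not move one way. Of 34 in the list, 21 were under the mean of 1 TPM and 13 were tested. Of these 13, 3 rose, 3 fell and 7 did not pass, beside 9.75% of all tested genes called higher and 3.48% lower. The median log2 fold change was -0.13 beside -0.04 for all tested genes, and 0.21 beside -0.01 in the GC-adjusted fit. Of the 3 that rose, IFI27, an interferon-inducible mitochondrial protein, went from 7.74, 7.93 and 10.7 TPM to 21.2, 16.5 and 18.4 TPM (log2 fold change 1.02, limma adjusted p = 0.0161). ISG20, an exonuclease of viral RNA, rose from 2.16 ± 0.112 to 5.04 ± 0.906 TPM (0.92 on the log2 scale, adjusted p = 0.0303), and IFI35 from 1.84 ± 0.248 to 4.38 ± 1.15 TPM (0.90 on the log2 scale, adjusted p = 0.0465). The 3 that fell were the abundant IFITM genes, membrane proteins that block entry of enveloped viruses. IFITM1 went from 487, 417 and 507 TPM to 214, 232 and 211 TPM (-1.10 on the log2 scale, adjusted p = 0.00263), IFITM2 from 233 ± 27.3 to 91.3 ± 3.88 TPM (-1.34 on the log2 scale, adjusted p = 0.00174) and IFITM3 from 904 ± 125 to 535 ± 33.1 TPM (-0.75 on the log2 scale, adjusted p = 0.0144). These 3 genes are close paralogs that can share reads, so the value of each is uncertain. ISG15, a ubiquitin-like modifier, was at 79.7 ± 9.53 and 120 ± 26.6 TPM and did not pass (log2 fold change 0.56, adjusted p = 0.0930). It passed when DMSO 3 or penfluridol 3 was left out (adjusted p = 0.0429 and 0.0369), and its GC-adjusted log2 fold change was 0.21 (adjusted p = 0.405).

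The calls of IFITM1 and IFITM2 were made in each of the 6 fits that left out 1 library. The IFITM3 call was lost without DMSO 1 (adjusted p = 0.0760), penfluridol 1 (0.0585), penfluridol 2 (0.0746) or penfluridol 3 (0.0509), and that of IFI27 without DMSO 1 (0.0817), penfluridol 1 (0.0681) or penfluridol 2 (0.0735). ISG20 and IFI35 were called without DMSO 3 alone, and otherwise had adjusted p-values up to 0.125 and 0.175 with DMSO 1 left out. In the GC-adjusted fit 2 of the 13 tested genes were called higher and 4 lower, beside 10.2% and 8.97% of all genes. IFI35 was not among those called (adjusted p = 0.0624).

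The promoter windows of IFI27 and IFITM1 are shown as examples, chosen because these genes moved in opposite directions and both hold ISRE matches. Each window has 2 ISRE matches, in capitals, and a GAS match that overlaps both of them in IFI27 and the downstream one in IFITM1, in the same run of capitals. The IFI27 window shown is chr14:94110486-94110785 and the IFITM1 window chr11:313790-314089, both on the plus strand.
IFI27: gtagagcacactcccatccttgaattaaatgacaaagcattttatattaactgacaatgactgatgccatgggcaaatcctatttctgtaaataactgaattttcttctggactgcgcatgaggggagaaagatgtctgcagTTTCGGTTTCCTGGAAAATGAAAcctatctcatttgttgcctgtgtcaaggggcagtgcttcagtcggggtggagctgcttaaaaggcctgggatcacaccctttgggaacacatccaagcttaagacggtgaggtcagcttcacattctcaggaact
IFITM1: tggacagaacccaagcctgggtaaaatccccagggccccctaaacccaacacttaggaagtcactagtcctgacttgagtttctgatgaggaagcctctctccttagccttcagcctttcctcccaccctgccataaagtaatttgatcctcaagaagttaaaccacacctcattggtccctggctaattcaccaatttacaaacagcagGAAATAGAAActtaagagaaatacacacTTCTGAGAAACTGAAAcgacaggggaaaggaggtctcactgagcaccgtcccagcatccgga

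In the windows shown, the ISRE matches of IFI27 start 108 and 95 bases upstream of the annotated start and those of IFITM1 40 and 6 bases upstream. IFI27 has 2 matched windows, and in the window not shown the same matches start 187 and 174 bases upstream of its start.

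Among 25 genes known as targets of IRF1 or of GAS-binding STAT dimers, 17 were under the mean of 1 TPM. Of the 8 tested 2 rose and none fell, beside 9.75% of all tested genes called higher and 3.48% lower. The median log2 fold change was 0.02, beside -0.04 for all tested genes. The GC-adjusted fit called 3 higher and 1 lower, beside 10.2% and 8.97% of all genes, with a median of -0.08 in the list. ICAM1, an adhesion molecule that is also an NF-kappaB target, measured 3.77, 2.41 and 3.44 TPM with DMSO and 17.0, 20.4 and 23.6 TPM with penfluridol (log2 fold change 2.34, SE 0.21, limma adjusted p = 0.00176). WARS1, the tryptophanyl-tRNA synthetase, which is also a target of the amino acid response factor ATF4, rose from 50.3 ± 8.78 to 124 ± 25.0 TPM (1.28 on the log2 scale, adjusted p = 0.00857). Both calls were made in each of the 6 fits that left out 1 library. B2M, the light chain of MHC class I and the most abundant of the list, was at 442 ± 135 and 421 ± 89.4 TPM (adjusted p = 0.925), and the GC-adjusted fit called it higher (log2 fold change 0.62, adjusted p = 0.0114). Its transcripts have 40.5% GC.

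All 16 genes of the STAT3 target list were tested, and 4 rose, none fell and 12 did not pass (6 rose and 2 fell without DMSO 3), with a median log2 fold change of 0.48, or 0.21 in the GC-adjusted fit. JUNB, an AP-1 subunit, measured 30.5, 24.8 and 26.2 TPM with DMSO and 81.8, 72.9 and 80.1 TPM with penfluridol (log2 fold change 1.50, limma adjusted p = 0.00151), a call made in each of the 6 fits that left out 1 library. PIM1, a survival kinase, rose from 5.76 ± 0.930 to 12.97 ± 2.81 TPM (1.04 on the log2 scale, adjusted p = 0.0228), VEGFA, the angiogenic growth factor, from 15.5 ± 4.99 to 43.0 ± 13.1 TPM (1.43, adjusted p = 0.0267), and TIMP1, a metalloproteinase inhibitor, from 50.9 ± 9.47 to 77.9 ± 2.59 TPM (0.62, adjusted p = 0.0418). The PIM1 call was lost without DMSO 1 (0.0938), penfluridol 1 (0.0503), penfluridol 2 (0.110) or penfluridol 3 (0.0612), and the VEGFA call without DMSO 1 (0.0659), DMSO 2 (0.0516), penfluridol 2 (0.108) or penfluridol 3 (0.0746). TIMP1 was called without DMSO 3 alone (0.0105, and up to 0.172 without penfluridol 2) and was not called in the GC-adjusted fit (log2 fold change 0.36, adjusted p = 0.0913). BIRC5, the apoptosis inhibitor survivin and the most abundant of the list, was at 128 ± 18.5 and 120 ± 0.836 TPM (adjusted p = 0.671). Many genes of these target lists respond to other pathways too, and the part of any one factor was not tested.

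**Figure D5:**
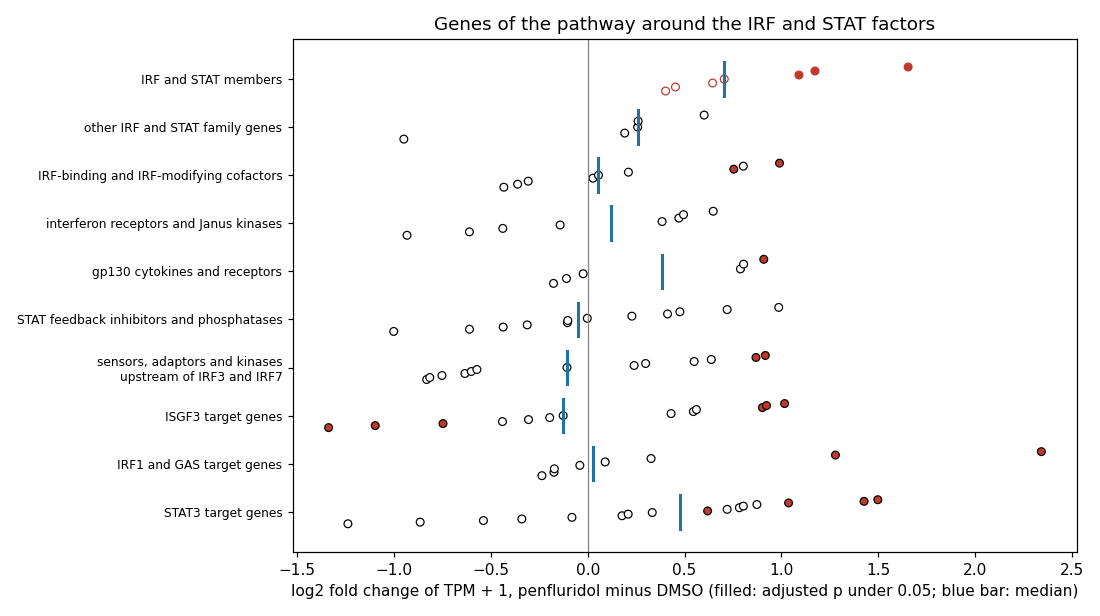
Log2 fold change of each tested gene in the members and in 9 pathway lists; filled points have an adjusted p under 0.05 and the blue bar is the median of the list. The members lie wholly above 0, while the ISGF3 targets hold 3 called genes on each side of 0.

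The genes whose profiles over the 6 libraries lay closest to that of IRF7, among 7179 genes with a symbol and a mean of at least 5 TPM, were CSRNP1, NCOA7 and C2CD2L. The root mean square difference of log2(TPM + 1), each gene set against its own DMSO mean, was 0.0935, 0.0989 and 0.119. CSRNP1 measured 4.37, 3.96 and 4.50 TPM with DMSO and 16.0, 14.6 and 17.2 TPM with penfluridol, nearly the levels of IRF7 itself, and NCOA7 2.43, 2.07 and 1.92 TPM and 8.78, 8.50 and 10.4 TPM. The likeness was computed on values without GC adjustment. In the GC-adjusted fit the log2 fold changes were 1.35 for CSRNP1, 2.41 for NCOA7 and 1.29 for C2CD2L, beside 1.26 for IRF7. NCOA7 thus no longer lay close to IRF7 in that fit. The likeness describes the profile only.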

How the data were processed

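Libraries were prepared from Ishikawa cell total RNA using a SMARTer kit (per the labels' protocols), with 3 DMSO and 3 penfluridol libraries grouped by the treatment in their labels. The deposited values were taken as TPM computed by the authors, rounded to 2 decimals, because the file header names no unit and each column sums to nearly the total that TPM should. Per the submitters' processing notes, fastp, RSEM and build GRCh38.p13 were used; the sources used here give no versions, aligner, annotation or strand setting. Each library summed to 994165 to 997207 TPM. TPM keep no read counts, so depth is unknown and no counting interval is given; precision comes from the spread between libraries. No column belonged to another sample, and 1 line was blanked out before use.

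Log2(TPM + 1) was fitted with limma 3.58.1 in R 4.3.3 (intercept and treatment, trended variance, two-sided, Benjamini-Hochberg over all genes averaging 1 TPM or more). Ratios between genes were tested by exact permutation of the 6 libraries. For the GC-adjusted fit (GC and length correction), each library's deviation from the gene mean was regressed on natural splines of 4 degrees of freedom in median transcript GC content and log2 length from GENCODE release 29 and the fitted trend removed; 99.3% of tested genes had both values. The fit was tested on simulated data. Alternatives were another pseudocount (0.1), no filter or a stricter one, median-of-ratios scaling, a replicate block, and each library left out in turn. Promoter windows are RefSeq's, on GRCh38.p14.

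All 8 members are named. From each of 10 pathway lists the 2 called genes with the smallest p in each direction and the gene with the highest mean were named, except items not reported here, and any further gene was picked with its values in view. Members and lists were chosen with earlier results of these data known.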

Additional observations from a re-analysis of the deposited data

How the results depend on the processing

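The 7 tested members kept their direction in all 96 values recomputed under the alternatives, of which 79 also stayed on the same side of the threshold, 11 lost a call and 6 gained one. The number of members called, 3, ranged from 1 to 5 with 1 library left out and was 0 with the replicate number as a replicate block, where IRF7 had an adjusted p of 0.0583 and IRF1 of 0.0910. The labels do not say whether same-numbered libraries were handled together. Their deviations from the group means correlated at -0.008, -0.006 and -0.348 across genes. For differently numbered libraries this ran from -0.334 to 0.320, so these values do not settle whether a block applies. Over all tested genes, 1190 were called higher and 425 lower. These became 62 and 12 with the replicate block, and 378 and 246 with the block and the GC and length correction. The lower calls numbered 194 with no filter on low TPM, 1086 with the GC and length correction, and 1373 when DMSO 3 was also left out, an alternative chosen after seeing the data. With 1 library left out, 214 to 1732 genes were called higher and 42 to 2380 lower. The cause was not tested.

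Directions reversed in 4 named genes that did not pass. With 1 library left out, log2 fold changes ran from -0.062 to 0.036 for PTPN6, -0.30 to 0.16 for B2M and -0.18 to 0.026 for BIRC5. With median-of-ratios scaling PTPN6 was at 0.088, B2M at 0.052 and BIRC5 at 0.011. After the GC and length correction, with or without the block, B2M was at 0.62 and TBK1 at 0.17, and with DMSO 3 also left out B2M was at 0.67, TBK1 at 0.18 and BIRC5 at 0.0082. The unknown depth limits the low genes most, IRF2, IRF5 and IRF9 among the members.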
